A study of Mus musculus with 605 samples.

Results

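The myeloid cells of dorsal skin were compared between the mutant and the wild-type mice of a hairy nevus model at postnatal day 56. All cells labelled as myeloid were taken, and a cell was kept when its deposited TPM values (relative transcript abundances corrected for transcript length) summed to at least 750000, when mitochondrial genes held at most 20% of them and when at least 1000 genes were above 0. This kept 145 of 155 labelled myeloid cells, out of 605 cells in the whole series. The mutant group (genotype label Mut) kept 72 of 77 cells and the wild-type group (genotype label WT) kept 73 of 78 cells, and no treatment is labelled for either. In the study's model an activated Nras is driven by the tyrosinase promoter, that is in pigment cells, and which mutant line gave these cells, how many mice were used and how the myeloid cells were sorted are not given in the sources used here. Each group therefore counts as 1 sample: no p-value was computed and the spread given is over cells. Genotype cannot be told apart from the mouse or from a batch of capture or library preparation, neither of which the labels name.

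Skin holds several myeloid kinds. Resident dermal macrophages clear debris, make complement C1q and secrete chemokines. Dendritic cells take up antigen, show it on MHC class II molecules and, once mature, use the receptor CCR7 to travel to lymph nodes, while Langerhans cells do the same work from the epidermis and monocytes enter from the blood.

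The label was checked against 4 myeloid lineage genes. Laptm5, a lysosomal membrane protein of blood cells, was at TPM 1 or more, here called detected, in each of the 72 mutant cells and each of the 73 wild-type cells. Ptprc, the pan-leukocyte phosphatase CD45, was detected in 68 mutant and 69 wild-type cells. Tyrobp, a signalling adaptor of myeloid and NK cells, was detected in 64 mutant and 69 wild-type cells, and Fcer1g, the shared signalling chain of Fc receptors, in 59 and 69. In bulge stem cells and melanocytes of the same age none of these 4 genes was detected in more than 8.89% of the cells of any group. A median of 2945 genes was above 0 per mutant cell and 2946 per wild-type cell. No cell of either group had Tyr, and none met the melanocyte, neutrophil, mast cell, basophil, B cell or endothelial marker sets, which for 0 cells allows a share of up to 4.17% of mutant and 4.11% of wild-type cells (3 cells of the total). Erythroid markers were met by 6 mutant cells and 1 wild-type cell, fibroblast markers by 2 and 5, and keratinocyte markers by 1 mutant cell. T cell markers led the lineage sets in 6 mutant and 4 wild-type cells, and NK or innate lymphoid markers in 1 mutant cell. Nras was at a median TPM of 44 in mutant and 39.4 in wild-type cells.

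Differences were taken between group means of log2(TPM × 10000 / cell total + 1), a scale that understates the change of low genes, and a gene counted as different by size at 0.5 or more. The limit for a gene to be tested was detection in 25% of mutant or 25% of wild-type cells. Of the 4497 such genes, 44 were higher in mutant cells (0.978%) and 55 were lower (1.22%), with a median difference of 0.01. The 15 lowest genes included 4 chemokines (Ccl8, Pf4, Ccl7 and Ccl2) and the 3 complement C1q chains. The 15 highest, in order, were Rgs1, Ccr7, Nr4a1, Id2, Tagln2, Dnajb1, Psma3, Pdia3, Cct8, Actg1, Batf, Coro1a, Psma4, Tmsb10 and Syngr2. The balance of the counts depended on the setting: 46 genes were higher and 34 lower in cells with at least 2000 genes, 47 and 27 in pairs of cells matched on genes detected, and 967 and 861 on log2(TPM + 1).

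Of the macrophage genes, Ccl8, a monocyte-attracting chemokine, had the lowest difference. Its TPM ran from 0 through a median of 0 to 84066 in mutant cells and from 0 through a median of 0 to 121501 in wild-type cells. It was detected in 7 of 72 mutant cells (9.72%, exact 95% interval 4 to 19) and in 24 of 73 wild-type cells (32.9%, 22.3 to 44.9). Mean TPM was 1200 against 12048, and the difference of mean log2 values was -1.93 (SD over cells 1.30 in mutant and 3.81 in wild-type). Most cells of both groups were at 0, and the groups overlapped in range but differed in how many cells were high. Pf4, a platelet factor chemokine that resident macrophages also make, was detected in 6 mutant and 25 wild-type cells, with a maximum of 11872 in mutant and 15531 in wild-type cells and a difference of -1.64.

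The 3 chains of C1q, the opening component of the classical complement pathway, were often read in the same cells. C1qb was detected in 12 mutant and 25 wild-type cells, at mean TPM 488 and 1535 (difference -1.23). C1qc was detected in 6 and 26 cells (difference -1.19) and C1qa in 9 and 23 cells (difference -1.12). All 3 chains were detected together in 6 of 72 mutant cells (8.33%, exact 95% interval 3.12 to 17.3) and in 23 of 73 wild-type cells (31.5%, 21.1 to 43.4). The intervals, which cover counting error over cells only, did not overlap. Only 1 chain was detected in 3 mutant and 3 wild-type cells, and 2 chains in 3 mutant cells and 1 wild-type cell. The 3 genes are neighbours on mouse chromosome 4 (GRCm38, chr4:136880129-136898803) in the order C1qb, C1qc, C1qa.

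The upstream sequences of the leading gene at each of 3 loci are shown because their transcripts were lower in mutant cells and led the same cluster. All 3 were detected in each of the 17 cells of cluster 4, described below. Among the other 128 cells C1qb was detected in 15.6%, Ccl8 in 10.9% and Pf4 in 10.9%, and their overlap there was not counted. Each is the 250 bases before the RefSeq start (GRCm38.p6), written 5′ to 3′ on the strand of the gene. Capitals mark GAGGAA or its reverse complement TTCCTC, the core bound by the myeloid factor PU.1, which was found on either strand in 23.3% of 32851 mouse promoters of this length. C1qb lies at chr4:136886201-136886450 on the minus strand, Ccl8 at chr11:82114935-82115184 on the plus strand and Pf4 at chr5:90772185-90772434 on the plus strand.
C1qb: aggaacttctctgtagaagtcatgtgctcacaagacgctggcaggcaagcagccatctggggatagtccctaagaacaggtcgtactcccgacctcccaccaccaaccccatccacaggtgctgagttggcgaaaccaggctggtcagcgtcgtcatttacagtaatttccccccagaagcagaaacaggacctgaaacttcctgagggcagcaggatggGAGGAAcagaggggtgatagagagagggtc
Ccl8: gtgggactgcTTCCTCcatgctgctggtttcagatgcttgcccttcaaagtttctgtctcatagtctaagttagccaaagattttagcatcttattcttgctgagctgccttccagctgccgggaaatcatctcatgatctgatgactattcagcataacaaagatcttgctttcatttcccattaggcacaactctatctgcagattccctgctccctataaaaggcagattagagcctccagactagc
Pf4: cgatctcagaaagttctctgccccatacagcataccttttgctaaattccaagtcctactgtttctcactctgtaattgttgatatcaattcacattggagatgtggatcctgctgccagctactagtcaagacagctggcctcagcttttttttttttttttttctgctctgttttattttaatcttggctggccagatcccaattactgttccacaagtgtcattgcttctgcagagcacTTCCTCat
Each of the 3 windows held 1 match, at 30 bases before the start for C1qb, 240 for Ccl8 and 8 for Pf4. A match describes the letters of the window and is not a measured binding site.

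Within 81229 bases of chromosome 11 (GRCm38, chr11:82035571-82116799, order Ccl2, Ccl7, Ccl12, Ccl8) lay 4 monocyte chemoattractant genes, all lower in mutant cells. Other genes of this interval were not looked up. Ccl7 was detected in 9 mutant and 29 wild-type cells, with a difference of -1.06. Ccl2 was detected in 18 and 35 cells, with a difference of -1. Ccl12 was detected in 1 mutant cell, at TPM 399, and in 17 wild-type cells, of which the highest was at 9735 (difference -0.75). With Pf4 these were the 5 of 18 measured CC and CXC chemokines that were lower by size, and none was higher. A list member counted as measured when 10% of mutant or 10% of wild-type cells had it. Over all 7683 genes so measured, 0.573% were higher and 0.742% were lower. The chemokine median was -0.09 beside 0.00 for all these genes. Cxcl16, a membrane-bound chemokine, stood at 0.34 and Ccl22, a product of mature dendritic cells, at 0.31.

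**Figure D1:**
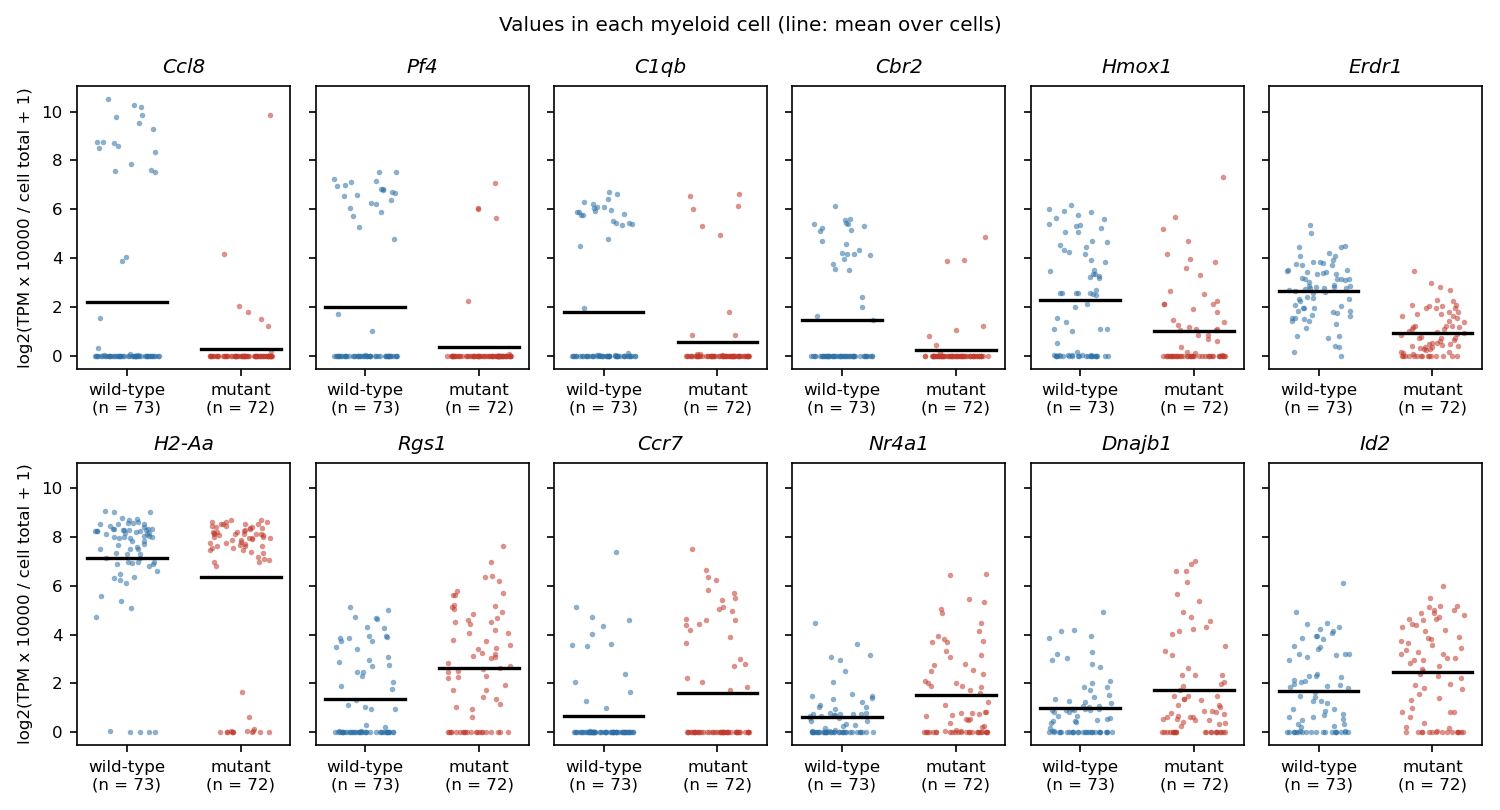
Each point is 1 myeloid cell, the vertical axis is log2(TPM × 10000 / cell total + 1) and the black line is the mean over 73 wild-type (blue) or 72 mutant (red) cells. Ccl8, Pf4, C1qb and Cbr2 sit at 0 in most cells and high in a set of mainly wild-type cells, Erdr1 is lower across the mutant cells as a whole, and Rgs1, Ccr7, Nr4a1, Dnajb1 and Id2 have more high cells in the mutant.

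Receptors and secreted proteins typical of resident macrophages were lower as a list. Of 11 measured members, 8 were lower by size and none was higher, and the list median was -0.70. Without the cells of cluster 4, a cluster of 17 cells described next, it was -0.24, and with clusters weighted equally -0.30. Cbr2, a carbonyl reductase, was detected in 8 mutant and 25 wild-type cells (difference -1.24). Sepp1, the selenium transport protein, stood at -1, and Mrc1, the mannose receptor CD206, at -0.83 with a median TPM of 5.4 in mutant and 136 in wild-type cells. Folr2, a folate receptor, was detected in 4 and 16 cells (difference -0.70). Of the 10 measured complement genes all 10 were below 0, of which the 3 C1q chains passed the size rule, and the median was -0.26. Igf1, a growth factor that macrophages supply to tissue, was detected in 7 mutant and 23 wild-type cells (difference -0.66). Apoe, a lipid carrier, had a difference of -1 in all cells, which was 0.011 without the cells of cluster 4.

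Unsupervised grouping of the cells on 1114 variable genes gave 4 clusters. Cluster 4 (17 cells) was led by Ccl8, Pf4, Apoe and the C1q chains, all detected in 17 of 17 cells, held Csf1r and Adgre1, the receptor and surface antigen of macrophages, in every cell, and had Flt3, Itgax and Zbtb46, which mark dendritic cells, detected in none. Other genes of the type 2 dendritic cell set were common in it, with Mgl2 and Sirpa in 17, Clec10a in 16 and Cd209a in 10 cells, while Dpp4 was in 0. Of the macrophage set, Cd163 was detected in 9 and Mertk in 5 cells. The macrophage set, counted as below, was met by 2 mutant and 15 wild-type cells of the cluster, and the type 2 set by 1 and 9. By its leading genes the cluster is called macrophage-like. It held 2 of 72 mutant cells (2.78%, exact 95% interval 0.34 to 9.68) and 15 of 73 wild-type cells (20.5%, 12 to 31.6). Since its leading genes are the ones that differed, the cells were also clustered without the tested genes past the size rule. The same 17 cells were grouped, again 2 mutant and 15 wild-type. Folr2 and Ccl12, also lower by more than the size limit, were detected in too few cells to be tested and were not removed. Macrophage markers under the size limit were not removed either. The regrouping therefore cannot show that the cluster is independent of the genes that differed. In the 2 mutant cells of the cluster C1qb was at TPM 5705 and 8698, within the range of 3300 to 9259 over the cluster. Pf4 was at 5643 and 11872 in these cells. Cbr2, at 1247 and 1277, and Ccl2, at 0 and 10.1, lay at or near the bottom of their ranges. The wild-type cells of the cluster came from both parts of the plate, 9 of 39 cells from rows A to D and 6 of 34 from rows E to H. With 2 mutant cells, levels within the cluster were not compared.

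C1q was not confined to cluster 4. All 3 chains were also detected in 6 of 11 wild-type and 3 of 12 mutant cells of cluster 3, and in 2 of 21 and 1 of 34 cells of cluster 1. Without the cells of cluster 4 the difference was -0.36 for Ccl8, -0.30 for C1qb, -0.58 for Pf4, -0.45 for Cbr2, -0.26 for Sepp1 and -0.52 for Ccl7. Of the 55 lower genes, 28 were higher in cluster 4 than in the other cells by 1 or more on the log2 scale. As 15 of the 17 cells of cluster 4 were wild-type, this count follows in part from how the 55 genes were chosen. The share over all tested genes was not taken. Without cluster 4, 31 of the 55 still passed the size rule and 54 of 55 were below 0. Of the 44 higher genes, 20 still passed. The genes of these counts had been chosen by their difference over all cells, most of which remain without cluster 4.

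**Figure D2:**
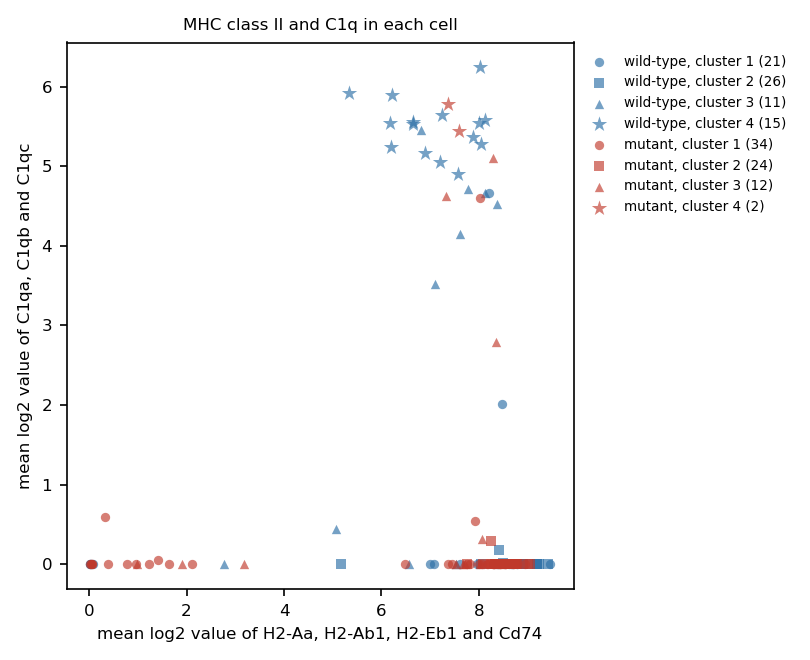
Each point is 1 cell, with the mean log2 value of H2-Aa, H2-Ab1, H2-Eb1 and Cd74 on the horizontal axis and that of C1qa, C1qb and C1qc on the vertical axis, coloured by genotype and shaped by cluster. The cluster 4 cells (stars, 15 wild-type and 2 mutant) lie at the top, and the cells below 4 for class II at the left number 15 mutant and 5 wild-type.

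The mix of kinds was also counted by marker sets. A cell was counted for a kind when at least 50% of the marker genes were detected, and a cell may count for several kinds. Macrophage markers were met by 24 mutant cells (33.3%, exact 95% interval 22.7 to 45.4) and 41 wild-type cells (56.2%, 44.1 to 67.8), so that the intervals overlapped in part. Conventional dendritic cell type 2 markers, which these cells share in part with dermal macrophages (46 cells met both sets), were met by 38 mutant (52.8%) and 50 wild-type cells (68.5%). Mature migratory dendritic cell markers were met by 16 mutant (22.2%, 13.3 to 33.6) and 8 wild-type cells (11%, 4.85 to 20.5), and Langerhans cell markers by 14 (19.4%, 11.1 to 30.5) and 7 (9.59%, 3.94 to 18.8). Type 1 dendritic cell markers were met by 14 and 12 cells, monocyte markers by 5 and 5, and T cell markers by 6 and 4. The intervals of the groups overlapped for each of these sets. Of the cells that met the Langerhans cell set, 15 also met the type 1 dendritic cell set. Cd207, a gene of the Langerhans cell set, was itself detected in 11 mutant (15.3%, 7.88 to 25.7) and 8 wild-type cells (11%, 4.85 to 20.5). These shares lay closer together than those that met the set.

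**Figure D3:**
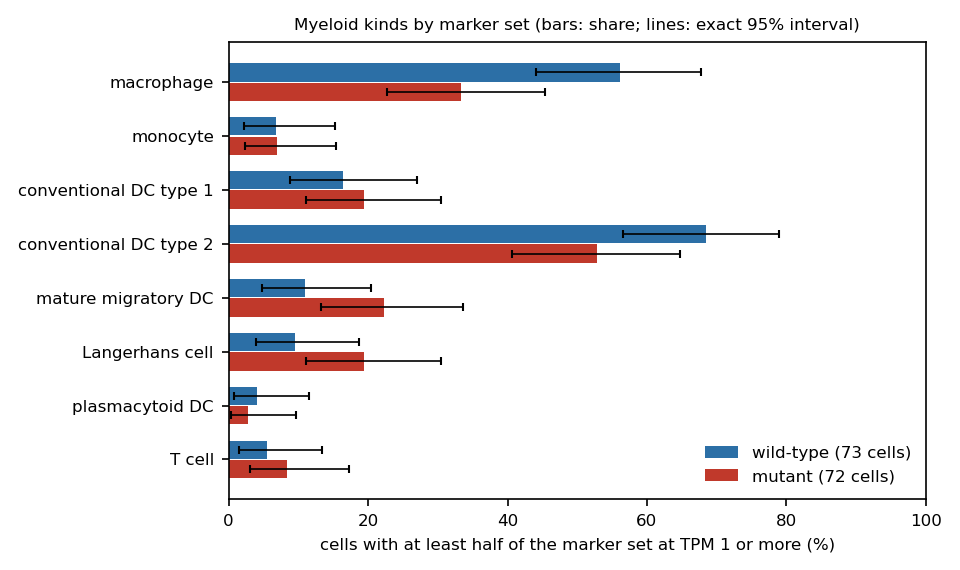
Bars give the share of wild-type (blue, 73 cells) and mutant (red, 72 cells) cells that had at least 50% of a marker set detected, on an axis from 0 to 100%, and lines give the exact 95% binomial interval. The macrophage bar is at 56.2% in wild-type and 33.3% in mutant cells, and the mature migratory dendritic cell bar at 11% and 22.2%.

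Cluster 2 (24 mutant and 26 wild-type cells) was led by Il1b, Ear2, the class II genes, Cd209a and Mgl2, and is called type 2 dendritic cell-like: Cd209a was detected in 45 of its 50 cells, Itgax in 38, Zbtb46 in 36, Clec10a in 27, Flt3 in 24 and Dpp4 in 7. Macrophage markers were also common in it, with Cd68 in 49, Adgre1 in 44, Mrc1 in 41 and Csf1r in 36 cells, and 12 mutant and 10 wild-type cells of it met the macrophage set, while C1qa was detected in none. Cluster 3 (12 and 11 cells) was led by Cxcl2, Ifitm3, Ccl4, Ccl6 and Clec4e and held both Csf1r (in every cell) and Ly6c2, a monocyte antigen, in 30.4% of its cells, and it was left unnamed. Cluster 1 (34 and 21 cells) was led by the heat shock genes Hspa1a, Dnajb1 and Hspa8 and held cells of several kinds, with Clec9a of type 1 dendritic cells in 14, Cd207 of Langerhans cells in 11 and Cd3e of T cells in 10 of its 55 cells, and it was left unnamed too.

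Of the genes of antigen presentation on class II, Cd74, the invariant chain, had a difference of -0.82, H2-Aa -0.81, H2-Ab1 -0.74 and H2-Eb1 -0.71, and these were the 4 of 10 measured class II genes that were lower by size, with a list median of -0.10. Median H2-Aa over cells was TPM 20452 in mutant and 21632 in wild-type cells, while median Cd74 was 42772 and 57683 and its upper quartile 58657 and 74352. For H2-Aa within cluster 2 the difference was -0.01, beside -1.31 within cluster 1, which held 12 of the 15 mutant and 4 of the 5 wild-type cells counted next. The mean log2 value of these 4 genes was below 4 in 15 of 72 mutant cells (20.8%, exact 95% interval 12.2 to 32) and 5 of 73 wild-type cells (6.85%, 2.26 to 15.3), a limit set after the values were seen. No cell lay between 3.18 and 5.07. Beside medians of 3039 genes in the other mutant and 2975.5 in the other wild-type cells, the cells below 4 had 2060 and 2446. Of these cells, 7 mutant and 4 wild-type ones were led by T cell or NK markers, Cd3e was detected in 6 and 4 of them and in no other cell, and Gata3, a factor of type 2 lymphocytes, in 9 and 3 of them. Without the cells led by T cell or NK markers the H2-Aa difference was -0.55 and that of Cd74 was -0.69. The class II list median was -0.02 in cells with at least 2000 genes and also -0.02 without the cells led by T cell or NK markers. Fcer1g, at -1.09 in all cells, was -1 without them, -0.51 in pairs matched on genes detected and -0.48 with clusters weighted equally. How far lymphoid cells account for the class II difference was not tested beyond these values.

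Hmox1 and Ftl1, genes of haem and iron handling, were lower within clusters 2 and 3. Hmox1, the enzyme that degrades haem, was detected in 33 mutant and 51 wild-type cells, with a median TPM of 0 and 403 and a difference of -1.29. Within cluster 2 its difference was -1.60 and within cluster 3 it was -1.58, while in cluster 1 it was 0.30. Ftl1, the ferritin light chain, was detected in every cell at a median TPM of 7687 in mutant and 14167 in wild-type cells (difference -0.72), and stood at -0.70 within cluster 2 and -0.74 within cluster 3. Fth1, the ferritin heavy chain, stood at 0.02. Of 9 measured genes of iron handling 3 were lower by size, none was higher and the median was -0.20.

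Erdr1, a gene named for induction by erythroid differentiation, differed across the whole population. It was present in 57 mutant cells and in all but 1 of the 73 wild-type cells, with a median TPM of 59.4 and 531, and its difference was -1.71 (SD over cells 0.87 in mutant and 1.17 in wild-type). The difference was -1.55, -2.00 and -1.71 within clusters 1, 2 and 3. In bulge stem cells it was -0.08 and in melanocytes 0.29, mutant against wild-type. Srsf2, a splicing factor, was at -0.87 in all cells and at -0.14, -1.18 and -0.93 within clusters 1, 2 and 3.

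Of the genes higher in mutant cells, Rgs1, which dampens chemokine receptor signalling, had the highest difference. Its TPM ran from 0 through a median of 428 to 17387 in mutant cells and from 0 through a median of 1.40 to 2911 in wild-type cells. Of the mutant cells 51 had it (70.8%), as did 37 of the wild-type cells (50.7%), and the difference was 1.27 (SD over cells 2.22 and 1.75). The difference was 0.45, 1.53 and 2.12 within clusters 1, 2 and 3. The groups overlapped, with the upper quartile of mutant cells at 1922 and of wild-type cells at 556.

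Ccr7, the lymph node homing receptor of mature dendritic cells, was detected in 27 mutant (37.5%, exact 95% interval 26.4 to 49.7) and 15 wild-type cells (20.5%, 12 to 31.6), with a difference of 0.92. The difference was 1.31 against wild-type plate rows A to D alone and 0.47, under the size limit, against rows E to H alone. Within cluster 2 it was 1.57. Its highest cells were alike, at TPM 15702 in mutant and 14227 in wild-type. Of 9 measured chemokine receptors Ccr7 was the one that passed the size rule, 8 of 9 were above 0 and the median was 0.19. Other measured markers of mature dendritic cells were closer to 0, with Samsn1 at 0.34, Ccl22 at 0.31, Socs2 at 0.19, Il4i1 at 0.05 and Cd40 at 0.00. Fscn1 and Cacnb3, also of this set, were in too few cells to be measured. Fscn1 was detected in 3 of 55 cells of cluster 1 and 3 of 50 of cluster 2, and Cacnb3 in 1 and 3. Cells thus met the set mostly on its other genes, of which Il4i1 and Cd40 were each also in 9 of 17 cells of cluster 4. Batf, a transcription factor of lymphocytes and dendritic cells, was detected in 48 and 32 cells (difference 0.63) and had a difference of 1.71 within cluster 3.

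Nr4a1, an immediate early nuclear receptor, was at mean TPM 600 in mutant and 104 in wild-type cells (difference 0.90), and Dnajb1, a heat shock co-chaperone, at 979 and 206 (difference 0.73). In pairs of cells matched on genes detected the differences were 0.44 and 0.39, both under the size limit, and in cells with at least 2000 genes they were 0.54 and 0.37. Without the cells led by T cell or NK markers they were 0.72 and 0.55. Of clusters 1 to 3 both differed most in cluster 1, where Nr4a1 differed by 1.35 and Dnajb1 by 1.75, beside 0.00 and -0.17 within cluster 2. The 11 heat shock genes had a median of 0.13 in all cells, with 2 higher by size (Dnajb1 and Hspa8), and of 1 within cluster 1. The median over all cells was not stable: it was -0.027 against wild-type plate rows A to D alone, 0.67 against rows E to H alone and 0.54 without cluster 4, every cell of which had Hspa1a. The 19 measured immediate early genes had a median of -0.06, and 1 of them, Nr4a1, was higher by size. Heat shock and immediate early transcripts can be induced while cells are taken from tissue, and the part of handling in these values was not tested. Id2, an inhibitor of DNA binding needed by several dendritic and lymphoid cells, was at 0.78 in all cells, 0.49 without cluster 4 and 1.28 within cluster 1.

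**Figure D4:**
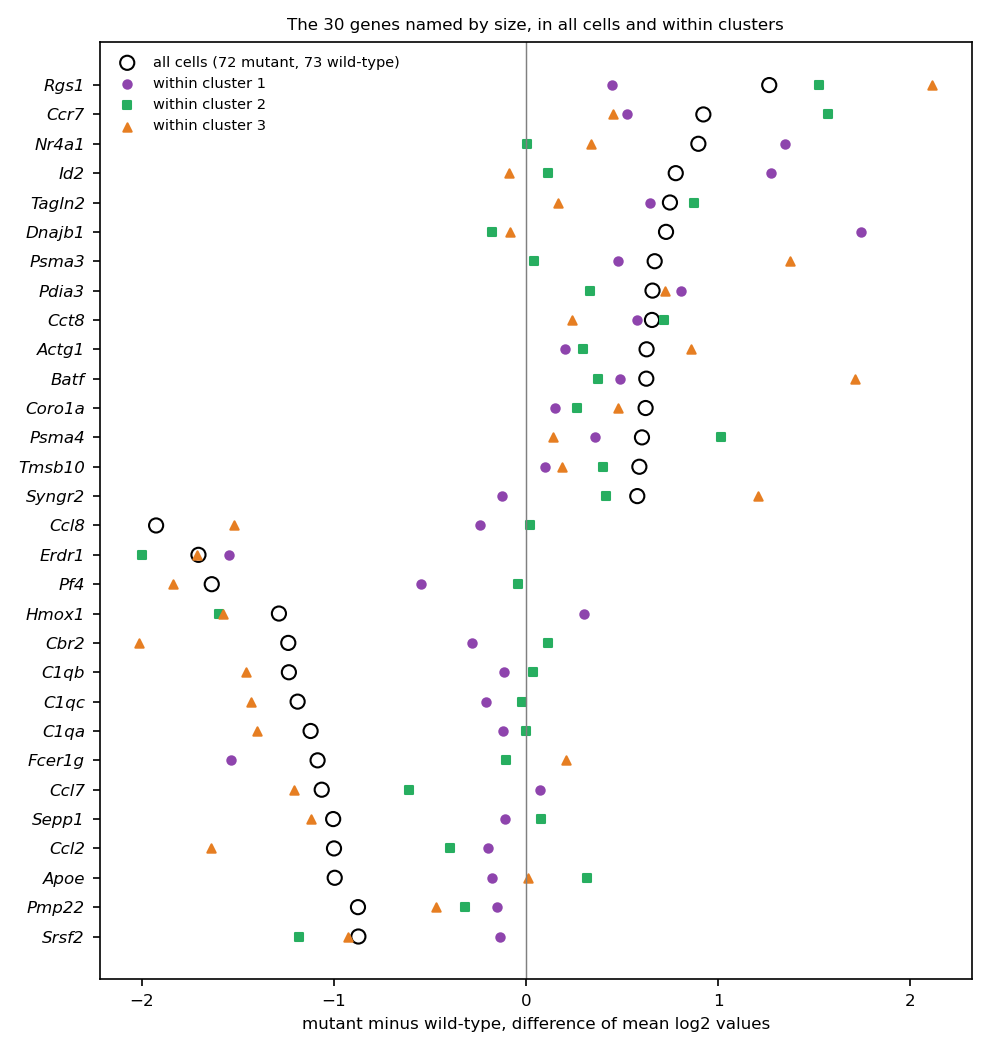
Open circles give the mutant minus wild-type difference of mean log2 values over all cells for the 15 highest and 15 lowest genes, and filled symbols give it within clusters 1, 2 and 3. Erdr1 lies between -1.55 and -2.00 in all 3 clusters, the C1q chains lie near 0 in clusters 1 and 2 and near -1.4 in cluster 3, and Dnajb1 is at 1.75 in cluster 1 and near 0 in clusters 2 and 3.

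Within clusters, cluster 3, which had the fewest cells of the 3, had the most genes past the size rule. Cluster 1 had 75 higher (1.55%) and 96 lower genes (1.99%) of 4833, cluster 2 had 112 higher (2.34%) and 50 lower (1.05%) of 4784, and cluster 3 had 251 higher (4.7%) and 233 lower (4.36%) of 5346. In cluster 1 the lowest differences were those of Cd209a (-1.62) and Cd209d (-1.58), lectins of dermal dendritic cells and macrophages, and of S100a4 (-1.56). Cluster 1 held several kinds in unlike parts: 12 of its 34 mutant and 4 of its 21 wild-type cells were below 4 for class II. Differences within it may therefore reflect its make-up, which was not tested. In cluster 2 Fcgr2b, the inhibitory Fc receptor, was at mean TPM 745 in mutant and 266 in wild-type cells (difference 1.29), Lgmn, a lysosomal protease, at 323 and 70.8 (1.13), and Plaur, the urokinase receptor, at 227 and 756 (-1.33). In cluster 3 Ear2, an eosinophil-type ribonuclease, was at 2.18 and Lyz1, a lysozyme, at 1.89, while the neutrophil chemokines Cxcl2 and Cxcl1 were at -2.10 and -2.05.

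Osteopontin, encoded by Spp1, is a secreted ligand of CD44 and integrins that the study followed in other cells. Spp1 was found in 18 mutant (25%, exact 95% interval 15.5 to 36.6) and 10 wild-type cells (13.7%, 6.77 to 23.8), with a highest TPM of 4219 and 3170 and a difference of 0.24. Its receptor Cd44 was at -0.15, Itgb1 at -0.14 and Itgav at -0.13. None of the 6 measured members of this list passed the size rule and the median was -0.14.

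**Figure D5:**
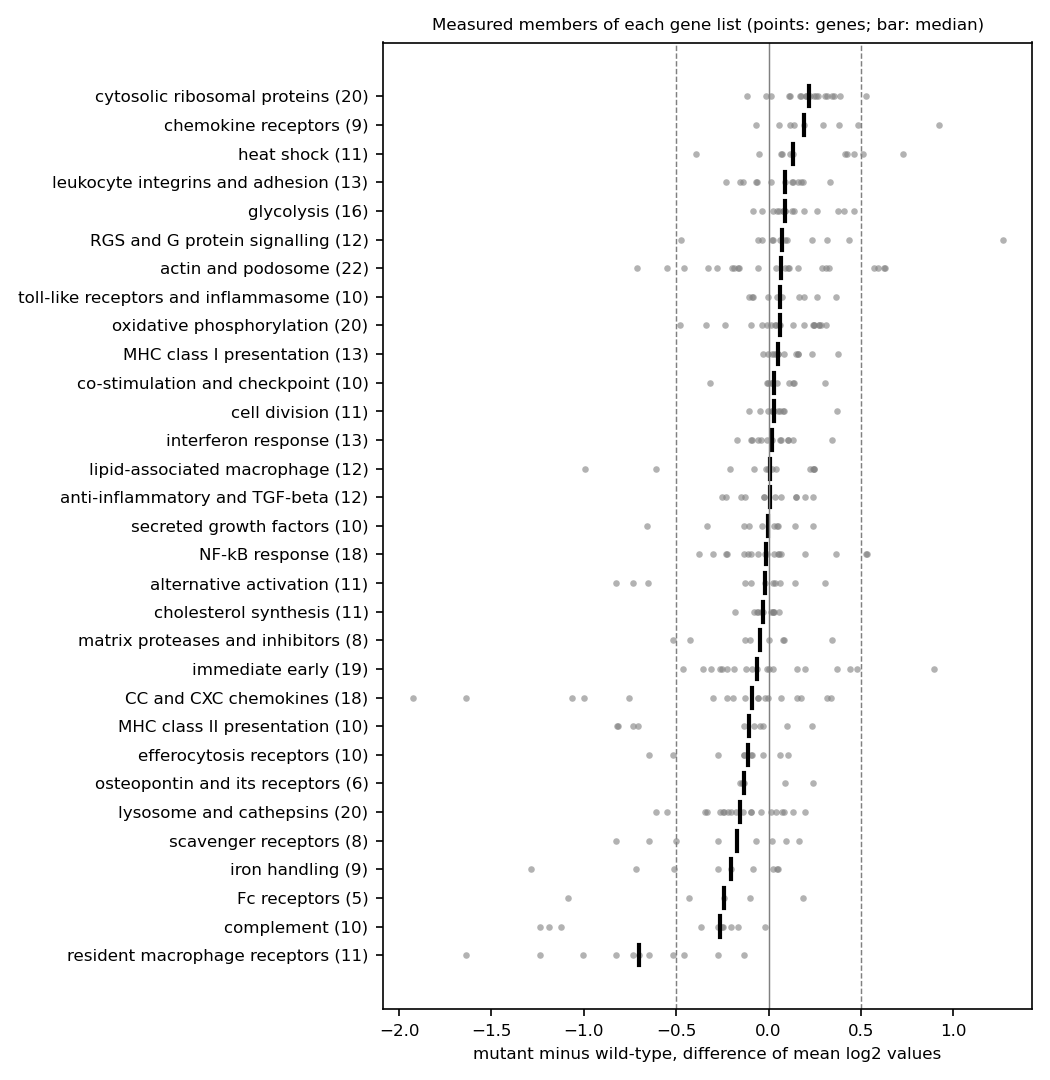
Each grey point is a measured member of a gene list (number in brackets), placed by its mutant minus wild-type difference of mean log2 values, black bars are list medians and dashed lines mark 0.5 either way. Resident macrophage receptors stand lowest with a median of -0.70 and cytosolic ribosomal proteins highest with 0.22.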

How the data were processed

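Single cells of 7 groups had been captured on a Fluidigm C1 chip and made into cDNA there with SMARTer chemistry per the study's methods (the labels name Smart-seq2), with empty and multiply filled chambers left out by the authors. Per the study's methods reads were aligned with STAR to mm10 (version 2.4.2 and GRCm38 are named in the submitters' processing notes) and quantified with RSEM. The authors deposited TPM values, 1 table per group, although the methods name another unit; read depth is unknown from TPM. In the tables, 1 wild-type column of values carries no label and was not used. Symbols were those of the deposited tables, except for 27 names that a spreadsheet had turned into dates, which were repaired from their gene identifiers. The 31002 identifiers gave 30959 symbols. The 145 cells had 145 distinct profiles. No doublet caller was run.

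Values were scaled to 10000 per cell and log2-transformed with a pseudocount of 1. Clusters used genes with mean above 0.01 and dispersion above 1, total and mitochondrial share regressed out, 10 components, 20 neighbours and Leiden resolution 0.6 (scanpy 1.11.5, igraph 0.11.9). Shares have exact Clopper-Pearson 95% intervals (SciPy 1.17.1), which cover counting error over cells only. Named genes were the 15 highest and 15 lowest of the genes tested, cluster leaders and cell type markers. They also included the 4 largest measured members of each list with its defining members. The 6 highest and 6 lowest within each cluster with at least 10 cells of both groups were added. Mitochondrial, ribosomal and predicted genes, pseudogenes, Xist, Tsix, Ddx3y, Eif2s3y, Kdm5d and Uty were left out of the rankings. Other sex-linked genes were not left out. The members and the 33 gene lists and 19 marker sets were chosen with earlier results of these data known. Lists with under 4 measured members are given by member only. Symbols from the lists that the tables do not hold were Cd301b, Clec7a, Ighm, Jaml, Selenop, Trac, Trbc2 and Trdc. The scripts were tested on simulated data. Sequences are from a reference set of RefSeq promoters (GRCm38.p6), in which 5 of 9 promoters looked up were found. Gene positions are GENCODE's for GRCm38. Alternatives are listed in the closing section.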

Additional observations from a re-analysis of the deposited data

Results flagged for a closer look

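Among the 30 genes named by size, 6 had differences of 0.5 or more of opposite sign in myeloid cells and in another cell type of the same age, always mutant minus wild-type on the log2 scale. Each cell type is 1 sample per genotype, so these differences between cell types were not tested. Nr4a1 was at 0.90 in myeloid cells and -2.33 in bulge stem cells. Dnajb1 was at 0.73 in myeloid cells, -1.49 in bulge stem cells and -0.72 in melanocytes. Id2 was at 0.78 in myeloid cells, -0.64 in bulge stem cells and -0.94 in melanocytes. Actg1, a cytoplasmic actin, was at 0.63 in myeloid cells and -0.59 in melanocytes. Cbr2 was at -1.24 in myeloid cells and 1.22 in bulge stem cells. Pmp22, a membrane protein, was at -0.88 in myeloid cells and 1.32 in melanocytes.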

How the results depend on the processing

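No paired analysis was possible because each group is 1 sample with no numbered replicates, and depth cannot be read from TPM. The alternatives were fixed with the design, except leaving out cluster 4, which was added after seeing the data. On log2(TPM + 1), which drops the division by the cell total and also makes the pseudocount much smaller beside the values, 967 genes were higher and 861 lower; by that scale medians were -1.33 for complement, -2.06 for resident macrophage receptors, -0.81 for scavenger receptors, -0.92 for Fc receptors, -0.46 for efferocytosis receptors, -0.55 for lysosome and cathepsins, -0.72 for iron handling, -0.48 for MHC class II presentation, -0.50 for chemokines, 0.81 for chemokine receptors, 0.44 for integrins and adhesion, 0.42 for RGS and G protein signalling, 0.53 for glycolysis and 0.34 for oxidative phosphorylation. With clusters weighted equally 26 genes were higher and 31 lower, the median of resident macrophage receptors was -0.30 and Apoe was at 0.051. Without cluster 4 there were 28 higher and 38 lower genes, the median of resident macrophage receptors was -0.24, that of heat shock genes 0.54, and Apoe was at 0.011. The lower genes numbered 34 with at least 2000 genes per cell, 27 in 62 pairs of cells matched on genes detected and 83 against wild-type rows E to H alone, where the heat shock median was 0.67. The other counts stayed within 1.5 times, and 29 of the 30 named genes kept their direction under every alternative run, Apoe being the exception. In at least 1 alternative 10 of the 15 named higher genes and 9 of the 15 named lower genes came under the size limit. The lowest values of these 10 higher genes were 0.23 for Tmsb10, 0.24 for Syngr2, 0.29 for Tagln2, 0.30 for Coro1a and 0.34 for Actg1. They were 0.37 for Dnajb1, 0.43 for Id2, 0.44 for Nr4a1, 0.46 for Psma3 and 0.47 for Ccr7. Cluster 4 kept 2 mutant cells, with 15 or 17 wild-type cells, in all 4 other clusterings. Cluster 1 held 80.6% of mutant and 64.4% of wild-type cells at resolution 0.3, when it took in cluster 2. It held 31.9% and 15.1% at resolution 1.0, and 42.5% of wild-type cells without the tested genes past the size rule. Cluster 2 held 18.1% and 15.1% at resolution 1.0, 22.2% and 21.9% without those genes, and 21.1% of wild-type cells with at least 2000 genes. With 3 in 4 of a marker set required, 6.94% of the mutant and 24.7% of the wild-type cells met the macrophage set, type 2 dendritic cell shares 22.2% and 23.3%, and mature dendritic cell shares 5.56% and 2.74%; Langerhans cell markers were met by 9.72% of mutant and 6.85% of wild-type cells, monocyte markers by 4.17% and 1.37%, type 1 dendritic cell markers by 13.9% and 6.85%, and plasmacytoid markers by 0 cells of either group. T cell markers were met by 3.08% of mutant cells with at least 2000 genes. The cause of these shifts was not tested.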

Other observations

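Several lists of basic cell functions lay on 1 side of 0 with few members past the size rule. Of 20 cytosolic ribosomal protein genes 18 were above 0 in mutant cells, with a median of 0.22, and Rpl4 was the one past the size rule, at 0.53. The median was 0.15 within cluster 1, 0.24 within cluster 2 and -0.04 within cluster 3. Of 16 glycolysis genes 14 were above 0, with a median of 0.09, headed by Ldha (0.46) and Aldoa (0.41).

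Chosen after the values were seen, Itgae, the integrin chain CD103, was detected in 16 mutant and 3 wild-type cells (difference 0.33), and Nlrp3, an inflammasome sensor, in 11 and 35 cells (difference -0.10). The actin and podosome list held 4 genes higher by size (Actg1, Coro1a, Tmsb10 and Lsp1) and 2 lower (Crip1 at -0.71 and S100a4 at -0.55). Xist was read in 59 mutant cells and 57 wild-type cells, and Ddx3y, Eif2s3y, Kdm5d and Uty were detected in 0 cells of either group.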
